A study of Mus musculus with 2 samples.

Results

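The 9 genes described here encode the costimulatory receptors CD28 and ICOS, the B7-type ligands CD80, CD86, ICOSL, PD-L1 (Cd274), PD-L2 (Pdcd1lg2) and B7-H3 (Cd276), and the related surface protein CD200. They were taken by name, as the genes whose RefSeq transcripts are targeted by non-control probes of the arrays, out of 18434 named genes with a probe. They had 12 probes on 21 spots, and every probe is reported. The probes target NM_007642 (Cd28), NM_017480 (Icos), NM_009855 (Cd80), NM_019388 (Cd86), NM_015790 (Icosl), NM_021893 (Cd274), NM_021396 (Pdcd1lg2), NM_133983 (Cd276) and NM_010818 (Cd200). Total RNA was read on 2 one-colour Agilent mouse arrays, 1 of Menin WT and 1 of Menin KO primary CD4 T cells from the spleens of female C57BL/6J mice. Menin, the product of Men1, works with the MLL histone methyltransferases. Cells of both genotypes were isolated as naive, activated for 2 days with immobilized antibody to TCR-β (3 μg/ml) together with antibody to CD28 (1 μg/ml) and IL-2 (2.5 ng/ml), then kept for 3 more days in the same amount of IL-2. CD28, the first member, was therefore itself engaged by antibody in both groups. How Men1 was removed, the ages of the mice and how many mice gave each RNA are not given in the sources used here.

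A T cell needs a second signal beside that of its antigen receptor, and the CD28 and B7 families carry it. CD80 and CD86 on antigen-presenting cells bind CD28, which promotes IL-2 production and survival, and bind the inhibitory receptor CTLA-4 more tightly. ICOS appears on activated T cells and binds ICOSL, while PD-L1 and PD-L2 bind the inhibitory receptor PD-1. CD200 signals through CD200R1 to restrain myeloid cells. Activated T cells can display several of these ligands themselves.

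Each genotype had 1 array, so the differences are descriptive and carry no p-value. Each difference is log2 of the KO signal over the WT signal, after each array was scaled by its 75th percentile, and a 2-fold difference served as the rule of size. The scanner software attaches an error to each spot, and the error of a difference given below combines those of both arrays. Over probes with repeated spots on both arrays, the pooled SD of the difference between spots was 0.0562 at signals of 100 or more (112 probes) and 0.266 below 100 (34 probes). Neither error covers mice, cultures, labelling or hybridisation. Men1 was lower in KO (signal 1081 in WT and 459 in KO, log2 difference -1.25), as was Bach2, the transcriptional repressor in the series title (4643 and 604, -2.96). The position of the Men1 probe relative to the deletion is not known.

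Of the 9 genes, 8 had a probe well above background, all of them on both arrays. Cd86 and Cd200 were at least 2-fold lower in KO, no member was at least 2-fold higher, and the other 6 lay between. In RNA of a whole culture, fewer cells of a type that makes a transcript and less RNA per cell cannot be told apart. Among all 13510 genes with a usable value, 5.14% were at least 2-fold lower and 10.8% at least 2-fold higher. Among the 12475 genes well above background on both arrays, as the 8 members were, the shares were 4.51% and 8.86%. The median difference of the 8 members was -0.24 (range -3.04 to 0.79), and that of the genes read on both arrays was -0.03. At 1.5-fold, 2 members were higher (Icos and Pdcd1lg2) and the same 2 were lower, beside 17.3% and 12.7% of all genes. These shares depend on the background correction. With normexp, a model-based correction of the raw spot signals, 601 genes were at least 2-fold higher and 1682 lower, against 1458 and 694. With 6 aberrant local backgrounds of the WT array replaced before normexp, the counts were 760 and 369. The members' counts were 0 and 2 either way.

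**Figure D1:**
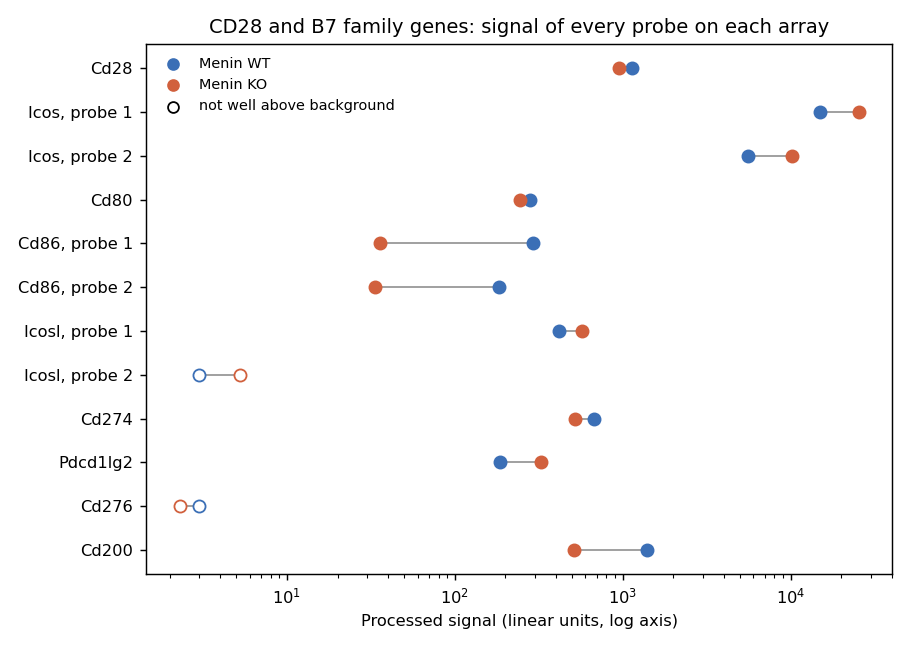
Processed signal of every probe of the 9 genes on the Menin WT (blue) and Menin KO (orange) array, on a log axis. Both Cd86 probes and the Cd200 probe were dimmer in KO, both Icos probes were brighter, and open circles (Cd276 and Icosl probe 2) were not well above background. Signals of different probes are not comparable as levels.

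**Figure D2:**
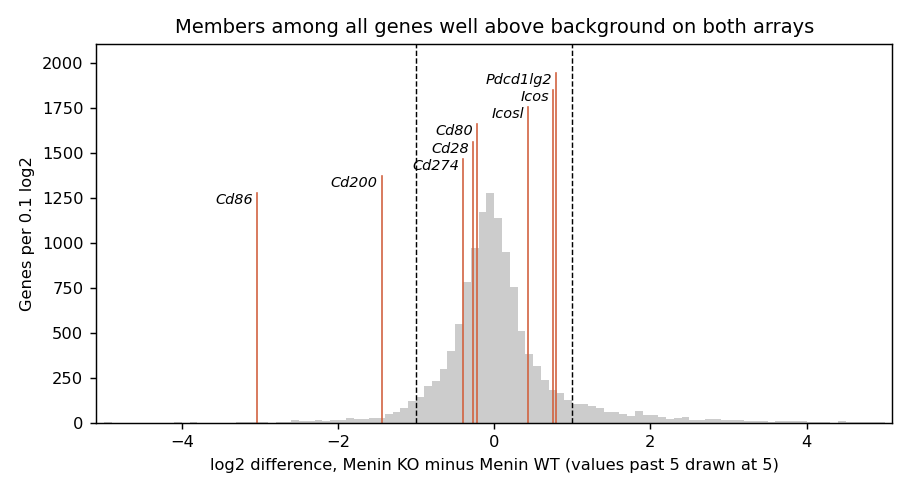
Histogram of log2 differences, KO minus WT, of the 12475 genes well above background on both arrays, in steps of 0.1. Orange lines mark the 8 measured members and dashed lines the 2-fold rule: Cd86 (-3.04) and Cd200 (-1.44) lie outside it and 6 members inside.

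Promoter sequence could be matched for 6 of the 9 genes (RefSeq, GRCm38.p6); Cd28, Icos and Cd86 had no entry. The 250 bases before the annotated start are shown for Cd200, the member beyond 2-fold with an entry. They are also shown for Cd80, the only one of the 6 with a match to TGANTCA, searched on both strands. TGANTCA is a looser form of the core site of AP-1 and Bach factors, with any base allowed at its centre. The Cd200 stretch is chr16:45409054-45409303 on the minus strand, and the Cd80 stretch is chr16:38458683-38458932 on the plus strand. Capitals mark the TGANTCA match, and the sequences run 5′ to 3′.
Cd200: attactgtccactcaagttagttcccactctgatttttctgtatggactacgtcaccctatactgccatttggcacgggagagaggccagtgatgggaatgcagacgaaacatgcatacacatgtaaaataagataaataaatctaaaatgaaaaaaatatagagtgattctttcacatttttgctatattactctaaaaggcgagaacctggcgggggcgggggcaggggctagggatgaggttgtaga
Cd80: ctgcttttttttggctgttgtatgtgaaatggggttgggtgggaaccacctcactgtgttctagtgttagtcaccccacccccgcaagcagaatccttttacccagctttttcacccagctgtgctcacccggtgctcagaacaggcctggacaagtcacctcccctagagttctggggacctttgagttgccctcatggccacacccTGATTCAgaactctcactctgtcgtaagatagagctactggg
The match in Cd80 begins at position -42 from the start site and has T at its centre, which the strict core site does not. Of 32851 promoter stretches of this length, 6.75% held TGANTCA. TTCNNNGAA, a form of the palindromic STAT site, was found in none of the 6 and in 7.02% of all. Other spacings between TTC and GAA were not searched. The stretches differed in composition. Those of Icosl (68.8% G and C, 23 CG pairs) and Cd276 (77.6%, 29) were rich in CG pairs, whereas those of Cd80 (52.8%, 3), Pdcd1lg2 (48.4%, 3), Cd200 (42.4%, 6) and Cd274 (50.4%, 11) held fewer, beside medians of 52.4% and 6 over all stretches. A match or its absence in this window describes letters only.

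Cd28 was read by 1 probe printed 10 times. Its signal had a mean of 1139 ± 35.9 (SD over 10 spots) in WT, from 1079 to 1200, and of 956 ± 34.6 in KO, from 916 to 1011. The spots of the arrays did not overlap, and the KO spots were dimmer in every case. The spots of an array share 1 RNA sample and 1 hybridisation, so their separation does not bear on mice or cultures. How often other repeated probes separate in this way was not counted. The mean log2 difference was -0.27 with an SD over spots of 0.0401 (from -0.31 to -0.20), or 1.20-fold lower in KO, beside a scanner error of 0.20. It lay well inside the 2-fold rule, and 27.9% of genes had a lower difference.

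**Figure D3:**
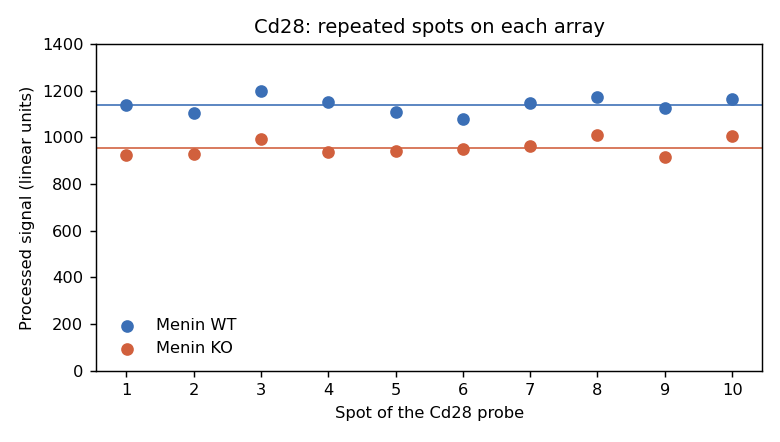
Processed signal of the 10 spots of the Cd28 probe on the Menin WT (blue) and Menin KO (orange) array, with a line at each mean. WT spots lie between 1079 and 1200 and KO spots between 916 and 1011; the spots of an array share 1 RNA sample and 1 hybridisation.

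Icos, the inducible receptor that drives cytokine production and follicular help, was higher in KO by both of its probes. Its brighter probe gave 14933 in WT and 25394 in KO, a log2 difference of 0.75 ± 0.20 (scanner error), or 1.69-fold. The other probe gave 5550 and 10179, a difference of 0.86 ± 0.20, or 1.82-fold. Both probes thus placed Icos above 88.1% and 89.7% of genes yet below the 2-fold rule. Set against Cd28, Icos stood 2.03-fold higher in KO than in WT (1.02 on the log2 scale, -0.27 for Cd28 and 0.75 for Icos). That gap was under 2-fold after loess on level (-0.17 for Cd28 and 0.77 for Icos).

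Cd28, Ctla4 and Icos are consecutive protein-coding genes of chromosome 1 in the RefSeq annotation, and their differences were not alike. Ctla4, which encodes the inhibitory receptor for CD80 and CD86, had signals of 564 in WT and 551 in KO and a log2 difference of -0.05, which was 0.06 after loess on level. The other inhibitory receptors of the family lay at opposite ends. Pdcd1, encoding PD-1, gave 746 and 1803, 2.40-fold higher in KO. Btla, encoding the receptor for HVEM, gave 725 and 113, 6.48-fold lower. Of these 3 receptors 1 was at least 2-fold higher and 1 lower, beside 10.8% and 5.14% of all genes.

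Among the ligands, Cd86 had the largest difference of any member, with lower signal in KO by both probes. The brighter probe gave 291 in WT and 35.6 in KO, a log2 difference of -3.04 ± 0.22 (scanner error), or 8.23-fold. The other gave 183 and 33.5, a difference of -2.46 ± 0.23, or 5.52-fold. Only 0.200% and 0.489% of genes had lower differences than these values. Both KO signals were dim, though above the lowest signal well above background on that array (10.4), and the size depends on the background correction: the difference was -2.07 after normexp and -1.89 after normexp with 6 aberrant local backgrounds of the WT array replaced, still past 2-fold.

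Cd80, the other ligand of CD28 and CTLA-4, did not share this difference. Its single probe gave 281 in WT and 243 in KO, a log2 difference of -0.22 ± 0.21, or 1.16-fold lower. Cd86 was thus 7.07-fold lower relative to Cd80 in KO than in WT. That gap was smaller, though past 2-fold, after normexp (-2.07 for Cd86 and -0.38 for Cd80) and with backgrounds replaced (-1.89 and -0.13). Both genes lie on chromosome 16, though not as neighbours. The protein-coding genes beside Cd86 are Casr, which had no usable value, and Ildr1 (log2 difference -0.80), and those beside Cd80 are Adprh (-0.32) and Timmdc1 (0.01).

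CD86 and CD80 are made by dendritic cells, B cells and macrophages as well as by activated T cells. Of 10 dendritic cell markers with a value, 6 were at least 2-fold higher in KO, 4 lay between and none was lower, each by its brightest probe. Of all genes 10.8% were at least 2-fold higher and 5.14% lower. The median of these markers was 1.22. After normexp as given, 4 of them were higher and 1 lower. Their summed signal was 46935 in WT and 87171 in KO. Most of it came from Batf3 (20259 and 47096), Ccr7 (16068 and 13287, log2 difference -0.29) and H2-Ab1 (8481 and 21262). T cells also express Batf3 and Ccr7. Itgax, encoding CD11c, was 30.8-fold higher (20.0 and 623), a log2 difference of 4.94 that was 1.79 at the lowest over the alternative settings. The class II transactivator Ciita (2.38-fold), H2-Aa (2.99-fold), H2-Ab1 (2.48-fold) and the invariant chain gene Cd74 (2.35-fold) were higher too, as was Batf3 (2.30-fold). Ciita was under 2-fold after either normexp correction, and H2-Aa after normexp as given. The more specific markers Zbtb46 (44.6 and 54.2), Flt3 (18.4 and 24.5) and Xcr1 (87.1 and 87.0) were dim on both arrays and under 2-fold apart by their brightest usable probes. The second probes of Zbtb46 (79.4 and 6.70) and Xcr1 (27.2 and 2.47) were well above background in WT alone, at least 7.72-fold and 2.65-fold lower in KO. Flt3 had a difference of -1.11 after normexp as given.

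Of 7 B cell markers with a probe, Pax5, Ebf1 and Blk were near background on both arrays. The other 4 had a summed signal of 900 in WT and 1593 in KO and a median difference of 0.76. Ms4a1, encoding CD20, was 2.01-fold higher (131 and 266), but under 2-fold with 4 of the alternative settings (0.26 on the log2 scale at the lowest), and Cd79b was 1.72-fold higher (665 and 1155). Among 7 macrophage and monocyte markers with a value, 3 were at least 2-fold higher and none was lower, beside 10.8% and 5.14% of all genes. Another 3 lay between and Lyz2 had a bound under 2-fold. The first 3 were Fcgr3 (at least 9.50-fold), Cd14 (7.25-fold) and Adgre1 (5.08-fold or more). Fcgr3 and Adgre1 were well above background in KO alone, so they entered the count only through the array where they were high. Among the 4 markers well above background on both arrays, 1 was higher, none was lower and the median was -0.19. The shares of all such genes were 8.86% and 4.51%. Fcgr3, Cd14 and Adgre1 were dim in WT. Normexp as given left Cd14 and Fcgr3 under 2-fold, as the version with backgrounds replaced left Adgre1. Normexp as given left none of 6 such markers higher and 2 lower, with a median of -0.79. Mpeg1 gave 165 and 107 (-0.64), Csf1r 27.3 and 21.0 (-0.39), and Lyz2 19.5 and 2.20 (a bound of -0.92). Of 6 T cell markers with a value, 2 were at least 2-fold lower in KO and none was higher, beside 5.14% and 10.8% of all genes. The other 4 lay between, and the median of the 6 was -0.44. Cd3d (62714 and 55593), Cd3e (1800 and 1584) and Cd3g (14762 and 19263) were under 2-fold apart, and Cd4 gave 443 and 279. Cd5, a restraining receptor of T cells, was 3.32-fold lower (55133 and 16739), and Cd2 was 2.31-fold lower (21038 and 9171). Cd8a, a CD8 T cell marker, was 10.2-fold higher in KO (312 and 3213). The part of other cell types in the member values was not tested.

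Icosl, the ligand of ICOS, differed little. Its usable probe gave 420 in WT and 572 in KO, a log2 difference of 0.43 ± 0.20, or 1.35-fold higher. The second Icosl probe did not rise well above background (2.99 and 5.24). Icos and Icosl were both above 0, with a difference of 0.32 between them.

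The PD-1 ligands lay on opposite sides of 0. Cd274 gave 679 in WT and 520 in KO, a log2 difference of -0.40 ± 0.20, or 1.32-fold lower. Pdcd1lg2 gave 187 and 327, a difference of 0.79 ± 0.21, or 1.73-fold higher, which became 0.58 with aberrant backgrounds replaced under normexp and 0.26 with normexp as given. The genes are next to each other on chromosome 19, and Pdcd1lg2 stood 2.28-fold higher relative to Cd274 in KO than in WT. That gap was under 2-fold after either normexp correction, where Cd274 had -0.27 as given and -0.28 with backgrounds replaced. The flanking genes Plgrkt (-0.48) and Ric1 (-0.72) had lower signals in KO. PD-1 itself (Pdcd1), at 2.40-fold, was past the 2-fold rule while neither ligand was.

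Cd276, encoding the B7-H3 ligand whose receptor on T cells is not settled, stayed near background on both arrays, at signals of 3.01 and 2.29. The lowest signals well above background were 14.0 (WT) and 10.4 (KO), so no fold is given.

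Cd200 was the other member past 2-fold. Its probe gave 1391 in WT and 516 in KO, a log2 difference of -1.44 ± 0.20, or 2.72-fold lower, and 1.92% of genes had a lower difference. The protein-coding gene before it on chromosome 16 is Btla, which was lower by more (-2.70). Cd200r1, encoding the receptor for CD200, went the opposite way: its brighter probe gave 27.1 and 211, 7.72-fold higher in KO, and its other probe was well above background in KO alone, at least 5.78-fold higher. Relative to Cd200, Cd200r1 was 21.0-fold higher in KO than in WT. The WT signal of Cd200r1 was dim. Its difference was 0.54 after normexp as given and 1.48 after normexp with aberrant backgrounds replaced, against 2.95. Cd200r3 was near background on both arrays, and Cd200r2 and Cd200r4 had no named probe.

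**Figure D4:**
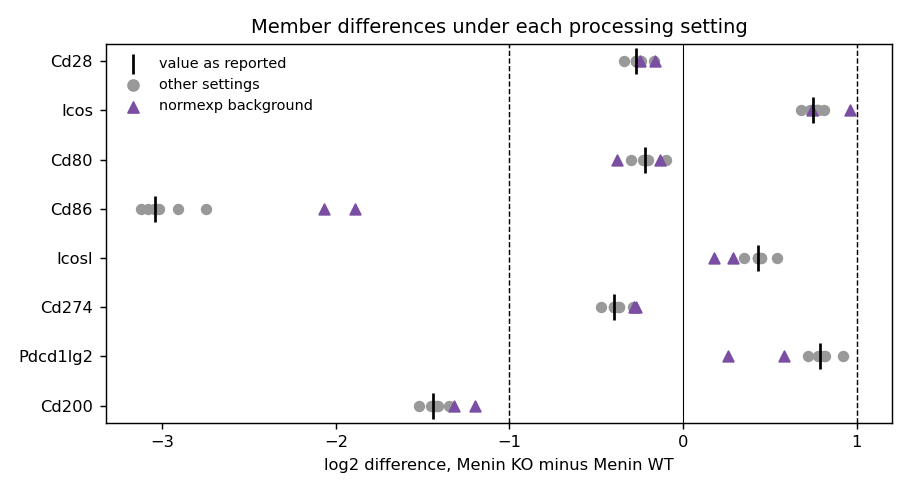
Difference of each measured member, KO minus WT on the log2 scale, as reported (black bar), under the other processing settings (grey) and under both normexp corrections (purple triangles). No member changes sign or crosses the dashed 2-fold lines, while Cd86 spans -3.12 to -1.89 and Pdcd1lg2 0.26 to 0.92.

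Other ligands and partners of this kind went both ways. Beside 10.8% of all genes at least 2-fold higher in KO and 5.14% lower, 1 of the 10 measured was higher, 2 were lower and 7 lay between. Their median was -0.03. Cd226, the activating receptor for CD155 and CD112, was 3.30-fold lower by its brightest probe (452 and 138), and its other 3 probes were lower too, with log2 differences of -2.11 and -1.98 and, for the dimmest, signals of 57.5 and 29.0. Its ligand genes differed from each other: Pvr, encoding CD155, was 1.37-fold lower by its brightest probe (5404 and 3985), with its other 3 probes from -0.43 to -0.30. Nectin2, encoding CD112, was 2.43-fold higher (135 and 331), but its second, dimmer probe gave 0.25. It was under 2-fold after either normexp correction and as the mean over its probes (0.42 at the lowest), which left no gene of the list higher.

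Cd2, the adhesion receptor that binds CD48, was 2.31-fold lower (21038 and 9171; -0.92 after normexp), while Cd48 itself had a difference of 0.18 (17949 and 20519). Tnfsf14, encoding LIGHT, was 1.74-fold lower (1185 and 689), and its receptor Tnfrsf14, which is also the ligand of BTLA, had a difference of -0.23 (73.0 and 62.8). Cd160, another receptor for Tnfrsf14, was 1.99-fold higher (27.8 and 55.9), although -0.81 after normexp. Vsir, encoding VISTA (2495 and 2966, 0.24), and Cd47 (52232 and 60148, 0.19) were near 0. Vtcn1, encoding B7-H4, was near background on both arrays, and Tigit and Btnl2 had no named probe.

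Genes that carry the CD28 and ICOS signal were nearly equal on the arrays. Of the 28 with a value, 27 lay within 2-fold, 1 was lower and none higher, beside 5.14% and 10.8% of all genes. The median of the 28 was -0.17, or 0.03 after normexp. The lower one was Grap2, encoding the adaptor GADS, which links the signalling scaffolds of CD28 and the antigen receptor (2145 and 697, 3.10-fold). The smallest differences were those of Gsk3b (-0.03) and Pik3ca, a catalytic subunit of PI3 kinase (0.03).

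Genes that CD28 costimulation is known to help induce held 3 of 12 at least 2-fold higher in KO, 1 lower, 7 between and 1 bound under 2-fold. Their median was 0.19. Of all genes 10.8% were at least 2-fold higher and 5.14% lower. The cytokine genes Il4 (493 and 2285, 4.60-fold) and Csf2 (154 and 636, 4.11-fold; a log2 difference of 2.04 that was 1.23 at the lowest over the alternative settings) and the costimulatory receptor gene Tnfrsf9, encoding 4-1BB (7171 and 28766, 3.98-fold), were higher. Cd40lg, encoding CD40 ligand, was 2.14-fold lower at dim signals (73.3 and 34.6), but not past 2-fold after loess on level or after normexp with backgrounds replaced (-0.54 at the smallest). Slc2a1 (0.01) and Myc (-0.05) had the smallest differences. Il2 was not well above background in KO (18.1 in WT).

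Genes listed for the interferon signal that induces PD-L1, not all of which belong to that signal, had a median difference of -0.25 over the 10 with a value. Ifngr1, a chain of the interferon gamma receptor (-0.03), and the transcription factor gene Irf2 (-0.11) differed least.

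**Figure D5:**
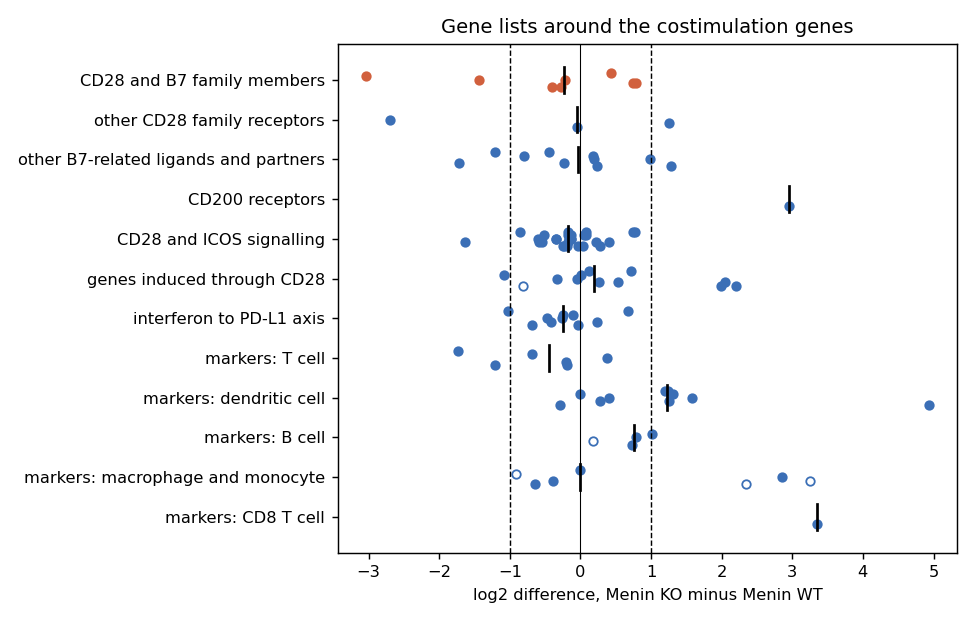
Differences, KO minus WT on the log2 scale, of every gene with a value in each list, 1 point a gene, with the list median as a black bar; open points are bounds and dashed lines mark 2-fold. The members (orange) reach from -3.04 to 0.79, while 6 of 10 dendritic cell markers lie past 2-fold on the higher side, beside 10.8% of all genes. The more specific markers Zbtb46, Flt3 and Xcr1 are not among the 6. After normexp as given, 4 of the 10 were higher and 1 lower.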

How the data were processed

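RNA (500 ng) was amplified and labelled with Cy3, per the labels' protocols. The intensity values are the processed signals the authors deposited, background-subtracted and detrended by Agilent Feature Extraction (10.7 per the submitters' processing notes, 10.7.3.1 per the file headers), with no scaling between arrays. Both arrays were on 1 slide. The log2 table deposited by the authors matched log2 of these signals (median over spots) less 1 constant an array, within 0.01 for 100% of 41174 probes, which settles its scale, centring and direction (column medians -3.97 and -3.90).

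Outlier spots (115 on WT, 103 on KO) were left out; no spot was saturated. Of non-control spots, 59.5% (WT) and 63.5% (KO) were well above background, and the 75th percentiles of signal were 644 and 650. Log2 signals minus that percentile were averaged over a probe's spots, and a gene took its brightest probe well above background on at least 1 array. Where 1 array was dim, the difference is a bound against the higher of the dim signal and the lowest signal well above background there. RefSeq names (GRCm38.p6; the array annotation is mm9) were found for 27050 probes. The rule named every member, every gene of the receptor and ligand lists and, in other lists, those at least 2-fold apart, the 2 least different or, for markers, the 2 brightest. Flanking genes and the markers named beyond it were chosen after their values were seen. Part of the interferon list is not reported here. The members and lists were chosen with earlier results of these data known. The number of arrays limits the precision, and with 2 arrays a pattern is 1 difference, so no genes of like pattern were sought. Alternatives used statsmodels 0.14.6 (loess) and limma 3.58.1 (normexp, offset 50, on median signals). The procedure was tested on simulated data with log2 shifts away from the 2-fold rule. Bounds, the larger scatter of dim spots and differences near 2-fold were not simulated.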

Additional observations from a re-analysis of the deposited data

How the results depend on the processing

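The 8 member differences kept their sign under all 11 alternatives of scaling, background, filter and probe choice, and none crossed 2-fold. The counts of 0 members higher and 2 lower held under those alternatives; they were 2 and 2 with a 1.5-fold rule and 0 and 1 (Cd86) with a 4-fold rule. Over all genes, the higher counts were 601 after normexp, 760 with 6 aberrant backgrounds replaced, 2338 at 1.5-fold and 542 at 4-fold, against 1458. The lower counts were 1682, 369, 1712 and 158 in that order, and 1113 with no filter on dim probes, against 694. Both normexp runs had the same settings apart from those 6 backgrounds, all on the WT array, so the shift between their counts came from them. Stricter or looser rules call fewer or more genes by construction. The cause of the other shifts was not tested. No paired analysis was possible because each genotype had 1 array, and no replicate could be left out. Dim signals limit Cd86 in KO, Cd200r1 in WT and Cd276 on both arrays.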
